A study of Homo sapiens with 4 samples.

Results

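The genes described here are QPRT and 9 further genes that make NAD or clear its precursor: IDO1, TDO2 and KYNU of the de novo route, NAMPT of the salvage route, NADSYN1, NMNAT1, NMNAT2 and NMNAT3 of the last steps, and NNMT, which removes nicotinamide. They are 10 of the 43305 gene names on the array, and 15 of its 58183 probes carry their names. The set was chosen by the measured differences between resistant and parental arrays, with QPRT at its head. The differences of these 10 genes in that contrast are therefore given as a description, with no test.

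RNA expression was measured in cells of head and neck squamous carcinoma (HNSCC) with 4 one-colour Agilent arrays, 1 per condition. The parental lines HN4 and HN30, both established human HNSCC lines, were grown in DMEM with 10% fetal bovine serum, with no cisplatin named in the labels. Their resistant derivatives HN4/DDP and HN30/DDP, labelled HN4_CR and HN30_CR in the deposit, had been selected with rising doses of the DNA-crosslinking drug cisplatin and were held in 20 μM of it, for 48 h by the labels. The comparison asks which genes differ between cisplatin-resistant cells and the line they came from. Resistant cells without drug are not analysed here, so resistance and the presence of cisplatin cannot be told apart. With 1 array per condition no difference within a line has a replicate check.

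A level is the log2 of a spot's intensity minus the log2 of the 75th percentile of its array, so that 0 marks that percentile. The 75th percentile was 444 to 496 intensity units, and 55.3% to 63.6% of the 60901 non-control spots were well above background, the highest share on the HN30/DDP array. The 4 arrays share 1 slide and 1 scan, and none of the spots was saturated. The SD given with a difference comes from the scanner software's own error for each spot. It covers that spot and leaves out the spread between cultures.

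NAD is the electron carrier of glycolysis and respiration and the substrate of sirtuins, PARPs and CD38. Cells make it from tryptophan by the de novo or kynurenine route, from nicotinic acid by the Preiss-Handler route, or from nicotinamide by salvage through NAMPT, the rate-limiting salvage enzyme. In the de novo route IDO1 or TDO2 opens the tryptophan ring, AFMID, KMO, KYNU and HAAO carry the product on to quinolinic acid, and QPRT turns quinolinic acid into nicotinic acid mononucleotide. The NMNAT enzymes and NADSYN1 finish NAD, and NNMT methylates nicotinamide so that it leaves the pool.

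Each level is read by a probe of 60 bases. The probes of the member that rose most, an enzyme upstream of it in the route, the salvage enzyme and the clearing enzyme are shown, so that the stretches of transcript behind the comparison of the routes can be seen. For NAMPT the probe shown is 1 of 3, with differences of -0.73 (HN4/DDP) and -0.33 (HN30/DDP), and the brightest probe, which stands for the gene below, is not printed. They are given 5′ to 3′ in the sense of the transcript, in lower case with no part in capitals, with positions on hg19 as the scanner files give them. A search for any stretch of 20 bases shared with a probe of another gene name found none for these 4 probes.
QPRT, A_23_P34233, chr16:29708670-29708729, plus strand: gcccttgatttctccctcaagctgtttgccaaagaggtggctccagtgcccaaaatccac
KYNU, A_24_P11506, chr2:143715219-143715278, plus strand: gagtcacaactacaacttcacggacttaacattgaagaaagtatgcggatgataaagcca
NAMPT, A_33_P3364864, chr7:105912977-105913036, minus strand: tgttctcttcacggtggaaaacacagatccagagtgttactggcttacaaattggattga
NNMT, A_23_P127584, chr11:114183072-114183131, plus strand: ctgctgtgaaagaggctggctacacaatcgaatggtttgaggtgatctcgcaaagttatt
The files tie each of these probes to an mRNA of its gene, and an annotation of hg19 that would place them in an exon was not used here.

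Of the 10 genes, QPRT and KYNU alone were past a log2 difference of 2 in both resistant lines. Both belong to the later de novo route, and they moved in opposite directions, QPRT higher and KYNU lower. With normexp background correction 1 of the 2 genes fell short of a difference of 2 in each line. QPRT was at 1.73 in HN4/DDP and KYNU at -1.93 in HN30/DDP, with the signs kept. NAMPT stayed within a log2 difference of 1 in both lines on each of its 3 probes. The genes past the threshold in 1 line were TDO2 (higher) and NNMT (lower) in HN4/DDP, and NMNAT2 (higher) in HN30/DDP. NNMT and NMNAT2 moved the same way in the other line without passing it, at -0.70 in HN30/DDP and 1.14 in HN4/DDP. TDO2 was dim on the HN30 and HN30/DDP arrays.

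**Figure D1:**
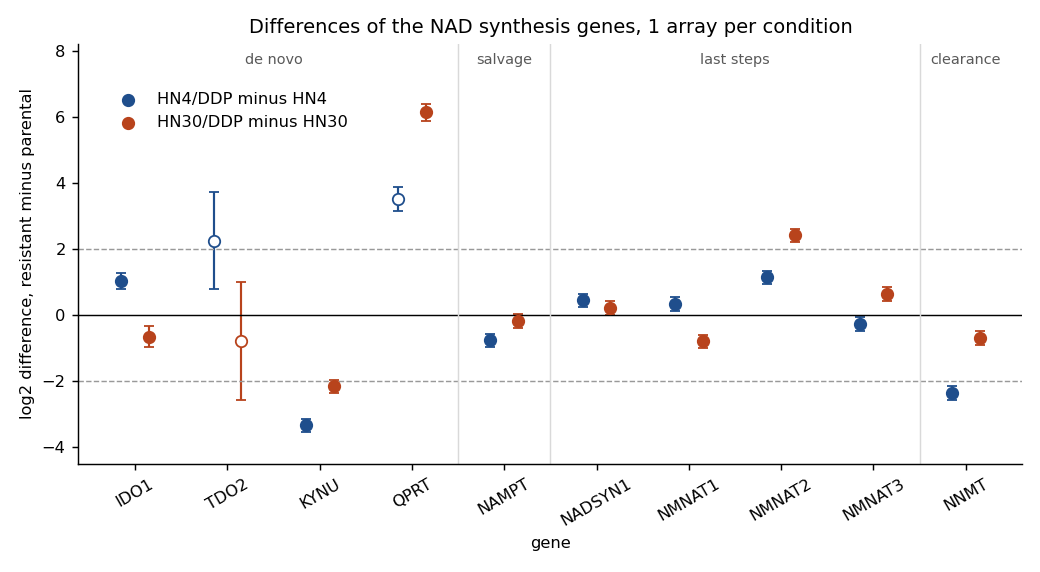
Log2 difference between the resistant and the parental array for each of the 10 genes, grouped by role, in HN4/DDP (blue) and HN30/DDP (red). Bars are 1 scanner SD, open points mark a pair in which an array was not well above background, and dashed lines mark a difference of 2. QPRT lies at 3.50 and 6.14 and KYNU at -3.34 and -2.16, while NAMPT lies at -0.77 and -0.18.

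QPRT encodes quinolinate phosphoribosyltransferase, the enzyme that commits the de novo route to NAD. Its level was -4.73 in HN4 against -1.23 in HN4/DDP, and -3.70 in HN30 against 2.44 in HN30/DDP, or in the same order 18.6, 212, 34.2 and 2600 in intensity units. Both resistant arrays lay above both parental arrays, and each step in the order HN4, HN30, HN4/DDP, HN30/DDP was wider than 2 scanner SD. In parental HN4 the spot was not well above background.

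In HN30/DDP the QPRT difference was 6.14 (scanner SD 0.26), which is 70.4-fold higher than in HN30. Of the 27623 genes that the HN30/DDP array read well above background, QPRT had rank 23 from the largest rise. Of the 25525 so read on the HN4/DDP array it had rank 270. Both ranks only describe, since the set was chosen on this contrast. In HN4/DDP the difference was 3.50 (scanner SD 0.36), and since HN4 was dim it is given as at least 11.3-fold. The bound is set by the parental spot's own signal, which lay above the lowest signal that was well above background on that array, -4.76. Since the HN4/DDP value is a lower bound, no size is given for the difference between the lines, which was not tested. With the background corrected by normexp, which fits a background distribution to the raw spot signals, the HN4/DDP difference was 1.73, under the threshold of 2, while that in HN30/DDP was 4.66.

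A rise of QPRT in a whole culture can come from more cells that carry its mRNA or from more mRNA per cell, and these cannot be told apart. Markers of the squamous epithelium were measured as a check of the label. All 8 listed (KRT5, KRT14, KRT6A, TP63, SFN, DSG3, DSC3 and CDH1) were well above background on each array, except KRT6A in HN30/DDP. Their summed level was 156 in HN4 against 177 in HN4/DDP, and 147 in HN30 against 91.6 in HN30/DDP. SFN was the highest of them on each array, at 6.98, 7.13, 6.93 and 5.97 in HN4, HN4/DDP, HN30 and HN30/DDP. It therefore has the largest share of each sum, which says little about the keratins or TP63. Several keratins and junction genes differed widely between the arrays of a line. KRT5 was 16.6-fold and DSC3 7.75-fold lower in HN4/DDP, where KRT14 was 5.04-fold and KRT6A 10.0-fold higher, and KRT6A was at least 183-fold lower in HN30/DDP. Of 5 leukocyte and macrophage markers on the array, 4 were above background in HN4, HN4/DDP and HN30 and 5 in HN30/DDP. Their levels relative to the 75th percentile added up to 7.48 in HN4 against 12.8 in HN4/DDP, and 4.22 in HN30 against 40.4 in HN30/DDP. This sum thus moved in the same direction as QPRT, with CD14, a surface receptor for bacterial lipopolysaccharide, at 5.30 in HN30/DDP against 1.82 in HN30. CD14 was the highest of these markers on each array, so most of the sum lay with it. ITGAM, an integrin of myeloid cells, was 2.89-fold higher in HN4/DDP and 4.17-fold higher in HN30/DDP, the latter past the threshold. CSF1R, a growth factor receptor of macrophages, was 3.16-fold higher in HN4/DDP and at -0.11 in HN30/DDP. PTPRC, the pan-leukocyte marker, was at -2.84, -2.94, -3.10 and -2.94 in HN4, HN4/DDP, HN30 and HN30/DDP, and the part of such cells in the QPRT rise was not tested. The fibroblast genes COL1A2, COL3A1, DCN and LUM were not above background on any of the 4 arrays, which left COL1A1 and PDGFRB of 6 fibroblast markers. The fibroblast sum also moved with QPRT, from 0.394 to 1.03 in HN4/DDP and from 0.223 to 0.771 in HN30/DDP, with COL1A1, a collagen chain, at 3.31-fold and 5.38-fold higher, and its part was not tested. PDGFRB, a growth factor receptor, differed by -0.01 in HN4/DDP and was 1.55-fold higher in HN30/DDP, so most of the rise in that sum lay with COL1A1. Endothelial markers numbered 2 of 4 above background, or 3 in HN30/DDP, and their sum was 0.266 in HN4 against 0.317 in HN4/DDP, and 0.224 in HN30 against 0.285 in HN30/DDP. VWF, the von Willebrand factor, was at least 5.37-fold higher in HN4/DDP and 2.81-fold higher in HN30/DDP. PECAM1, an adhesion molecule of endothelial cells, was at least 2.05-fold lower in HN4/DDP and at least 1.64-fold higher in HN30/DDP. CDH5, the cadherin of endothelial junctions and the 1 of the 4 above background on every array, went the other way, 1.54-fold lower in HN4/DDP and 1.5-fold lower in HN30/DDP. The endothelial sum nonetheless moved with QPRT, and its part was not tested.

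KYNU encodes kynureninase, which cleaves 3-hydroxykynurenine to the precursor of quinolinic acid. Its level was 1.50 in HN4 against -1.84 in HN4/DDP, and 1.55 in HN30 against -0.60 in HN30/DDP. The parental arrays differed by 0.06, within their scanner SD, and both resistant arrays lay below both of them. The difference was -3.34 (scanner SD 0.21) in HN4/DDP, 10.1-fold lower, and -2.16 (scanner SD 0.20) in HN30/DDP, 4.47-fold lower. Counted from the largest fall, KYNU was rank 194 of the 24796 genes above background on the HN4 array and rank 613 of 23948 on the HN30 array. With normexp the HN30/DDP difference was -1.93, short of the threshold.

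IDO1, the interferon-inducible dioxygenase of the first step, had levels of -3.52 in HN4 against -2.49 in HN4/DDP, and -3.64 in HN30 against -4.30 in HN30/DDP. All 4 spots were well above background, and the parental lines differed by less than 1 scanner SD. IDO1 was 2.04-fold higher in HN4/DDP, a log2 difference of 1.03 (scanner SD 0.25), and 1.58-fold lower in HN30/DDP, a difference of -0.66 (scanner SD 0.32). These opposite signs held under every other processing tried, with 0.48 to 1.12 in HN4/DDP and -1.12 to -0.33 in HN30/DDP.

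TDO2, the dioxygenase of the same step that is known from liver, was not well above background in HN4, HN30 or HN30/DDP. Its level in HN4/DDP was -4.75, and the dim readings were -7.00, -6.45 and -7.22. The measured difference in HN4/DDP was 2.25 with a scanner SD of 1.48, and as a bound it is at least 1.01-fold. TDO2 thus passed the count of higher genes with a rise that the dim HN4 spot does not fix, and its difference was 0.02 when dim signals were raised to the lowest signal above background, 0.32 with normexp, 0.79 with a pseudocount of 16 and 1.66 with a trend on brightness removed. No fold is given in HN30/DDP, where both arrays were dim.

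**Figure D2:**
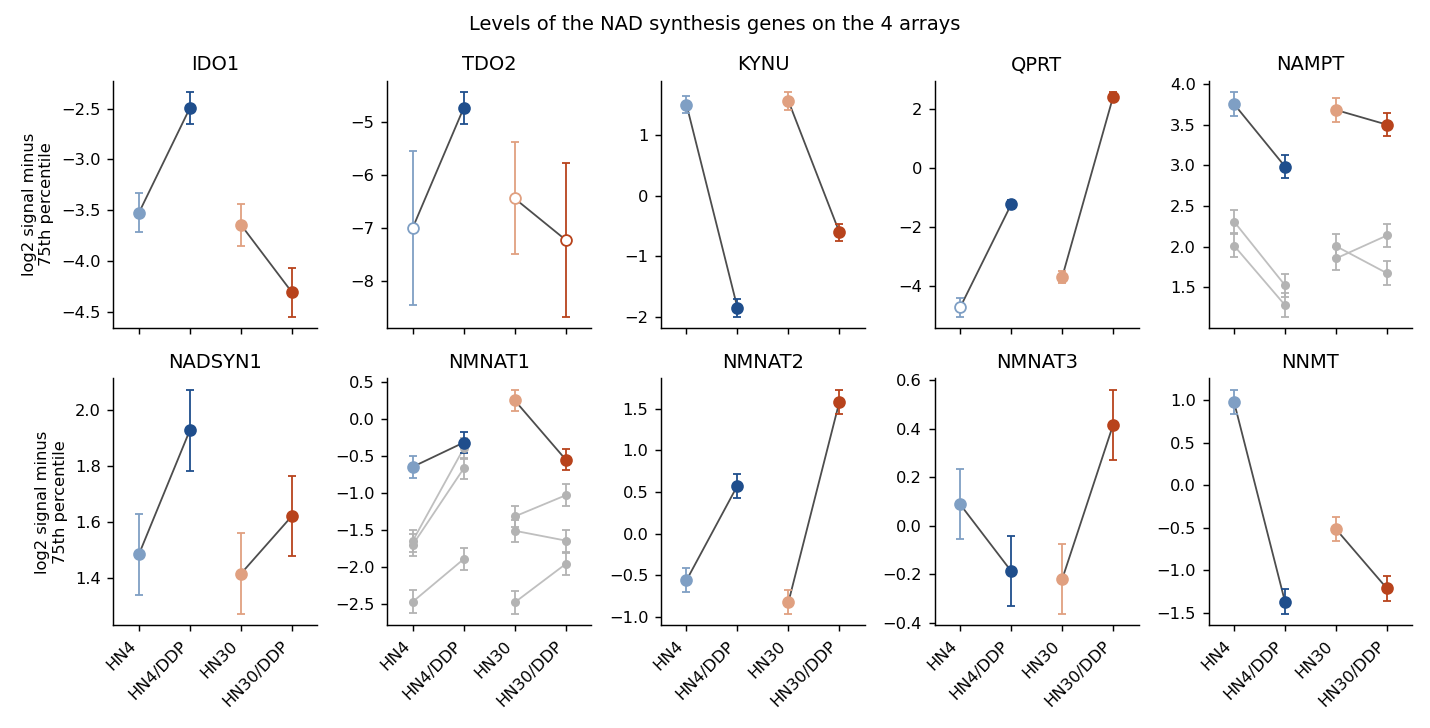
Level of each gene on the 4 arrays, as log2 intensity minus the 75th percentile of the array, with lines joining each parental array to its resistant array. Coloured points are the probe that stands for the gene, grey points its other probes, open points signals not well above background, bars 1 scanner SD, and each panel has its own axis. QPRT rose from -3.70 to 2.44 in HN30, and the 4 NMNAT1 probes and 3 NAMPT probes did not all move the same way.

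NAMPT encodes nicotinamide phosphoribosyltransferase, the first enzyme of salvage from nicotinamide. The probe that stands for the gene read 3.76 in HN4 against 2.99 in HN4/DDP, and 3.68 in HN30 against 3.50 in HN30/DDP. HN4/DDP was the lowest array, and the other 3, sorted by level, were within 2 scanner SD of their neighbours. The differences were -0.77 in HN4/DDP and -0.18 in HN30/DDP, each with a scanner SD of 0.20, or 1.70-fold and 1.13-fold lower.

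The other NAMPT probes gave -0.73 and -0.78 in HN4/DDP, close to the first. In HN30/DDP they gave -0.33 and 0.28, so the sign there depends on the probe. It also turned with the scaling, from -0.60 with median scaling to 0.26 after quantile normalization. Pseudogenes of NAMPT (NAMPTP1, NAMPTP2 and NAMPTP3) are listed by RefSeq, and whether the probes also read them was not tested. The probe with the difference of 0.28 is the 1 member probe whose accession was not found in the RefSeq table used for names.

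NADSYN1 encodes the glutamine-dependent NAD synthetase that finishes the de novo and Preiss-Handler routes. It read 1.49 in HN4 against 1.93 in HN4/DDP, and 1.42 in HN30 against 1.62 in HN30/DDP, and with the arrays sorted by level (HN30, HN4, HN30/DDP, HN4/DDP) no neighbours differed by more than 2 scanner SD. The differences were 0.44 in HN4/DDP and 0.21 in HN30/DDP, each with a scanner SD of 0.20, the latter -0.21 with median scaling. That in HN4/DDP, between arrays that are not neighbours in this order, was wider than 2 scanner SD.

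The 3 NMNAT enzymes join AMP to the mononucleotide, NMNAT1 in the nucleus, NMNAT2 at the Golgi and in axons, and NMNAT3 in mitochondria. NMNAT2 read -0.56 in HN4 against 0.58 in HN4/DDP, and -0.82 in HN30 against 1.59 in HN30/DDP. Both resistant arrays were above both parental arrays, which were within 2 scanner SD of each other. The difference was 1.14 (scanner SD 0.20) or 2.20-fold in HN4/DDP and 2.41 (scanner SD 0.21) or 5.32-fold in HN30/DDP. The HN30/DDP value was past the threshold, and with median scaling it was 1.99, just under it.

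NMNAT3 read 0.09 in HN4 against -0.19 in HN4/DDP, and -0.22 in HN30 against 0.42 in HN30/DDP. Its differences of -0.28 (HN4/DDP) and 0.64 (HN30/DDP) stayed under the threshold, and neighbouring arrays in the order of its levels were within 2 scanner SD of each other, although the lowest and the highest, HN30 and HN30/DDP, were not.

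NMNAT1 has 4 probes, and they disagreed. The brightest, which stands for the gene, read -0.65 in HN4 against -0.32 in HN4/DDP, and 0.25 in HN30 against -0.55 in HN30/DDP, with differences of 0.33 and -0.80. This probe shares a stretch of 20 bases with 3 probes of other gene names, the 1 member probe for which the search found any, so its reading of NMNAT1 is uncertain. The other probes gave differences of 0.58, 1.03 and 1.25 in HN4/DDP and 0.52, -0.13 and 0.29 in HN30/DDP. Higher readings in HN4/DDP were common to the 4 probes, while the sign in HN30/DDP depended on the probe.

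NNMT encodes nicotinamide N-methyltransferase, which is often high in carcinoma cells and in fibroblasts. It read 0.98 in HN4 against -1.37 in HN4/DDP, and -0.52 in HN30 against -1.22 in HN30/DDP. The resistant lines were within 2 scanner SD of each other, and the parental lines were not, HN30 lying 1.50 below HN4. The difference was -2.36 (scanner SD 0.21) in HN4/DDP, 5.12-fold lower, and -0.70 (scanner SD 0.21) in HN30/DDP, 1.62-fold lower.

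Against a threshold of 2, with the higher array well above background, 2 of the 10 genes were higher and 2 lower in HN4/DDP, where 2.24% of all genes were higher and 1.36% lower. In HN30/DDP 2 of the 10 were higher and 1 lower, where 5.48% of all genes were higher and 1.8% lower. Among genes well above background on all 4 arrays the shares were 1.5% higher and 1.23% lower in HN4/DDP, and 4.48% and 2.47% in HN30/DDP. Nothing is read from the members' counts, since the contrast chose them. The 8 members above background on all 4 arrays leave out QPRT and TDO2. The members' median difference was 0.39 in HN4/DDP and -0.42 in HN30/DDP, beside -0.21 and -0.07 over all genes. With median scaling the median over all genes in HN30/DDP moved by -0.42, and the higher genes made up 50.2% of the calls in place of 75.3%. In HN4/DDP that median moved by 0.20 with quantile normalization and in the deposited table and by 0.16 with normexp.

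The values that passed the threshold most narrowly were -2.16 for KYNU in HN30/DDP and 2.25 for TDO2 in HN4/DDP, and those that came nearest without passing were 1.14 for NMNAT2 and 1.03 for IDO1, both in HN4/DDP. Across the ways of processing, the QPRT difference ran from 1.73 to 3.59 in HN4/DDP and from 4.66 to 6.15 in HN30/DDP. That of KYNU ran from -3.34 to -2.86 and from -2.58 to -1.93.

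**Figure D3:**
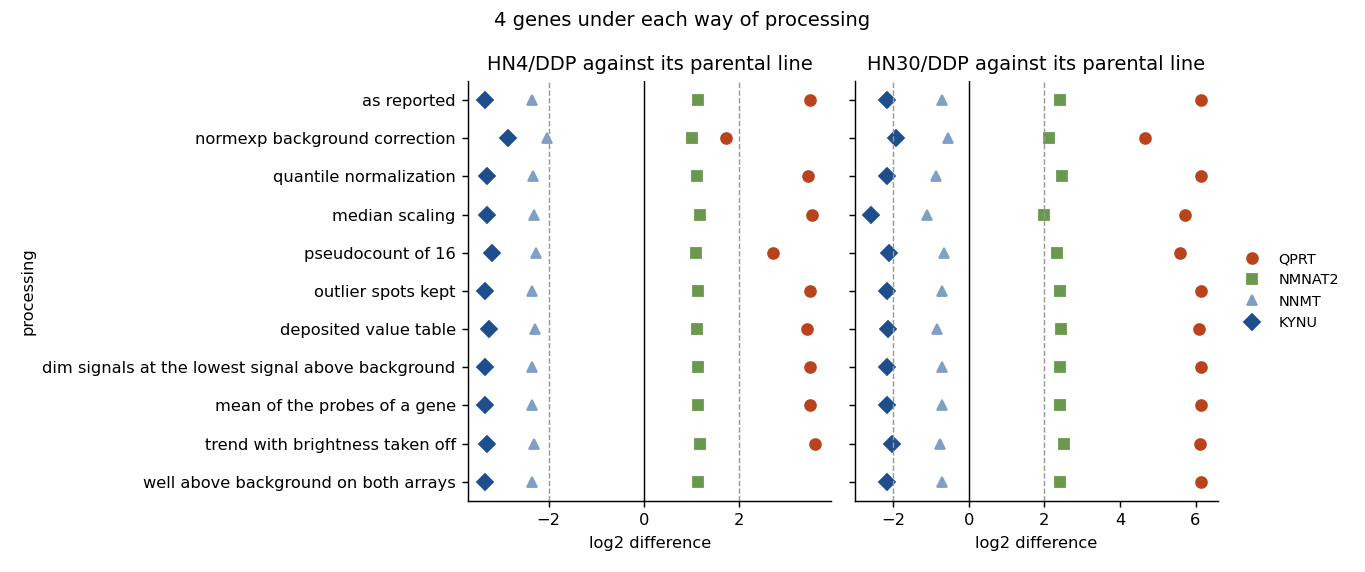
Log2 difference of QPRT, NMNAT2, NNMT and KYNU between resistant and parental arrays under each way of processing, in HN4/DDP on the left and HN30/DDP on the right, with dashed lines at a difference of 2. No point crosses 0. QPRT in HN4/DDP lies inside the dashed lines with normexp (1.73), and it has no point there when both arrays had to be above background.

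The remaining genes of NAD metabolism were taken from a list of 57 by their place in the pathway, of which 55 are on the array. In HN4/DDP 4 of the 55 were higher and 2 lower, beside 2.24% and 1.36% of all genes, with a median difference of 0.05. In HN30/DDP 3 of the 55 were higher and 2 lower, beside 5.48% and 1.8% of all genes, with a median of -0.32. SIRT4, a mitochondrial sirtuin, was past the threshold in the same direction in both lines, with 2.24 in HN4/DDP and 3.66 in HN30/DDP, or 4.72-fold and 12.6-fold. With normexp these were 1.43, under the threshold, and 2.42.

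Between IDO1 and QPRT the de novo route also needs AFMID, KMO and HAAO, named here for that place. None was past the threshold on the probe that stands for it. KMO, kynurenine 3-monooxygenase, was lower by its brighter probe in both lines, with -1.49 in HN4/DDP and -1.42 in HN30/DDP. Its second probe gave -0.61 and -6.18, with HN30/DDP not above background. With the mean over probes KMO was at -3.80 in HN30/DDP, past the threshold. HAAO, which makes the substrate of QPRT, had differences of 0.09 and 0.46 on the probe that stands for it, and 2.01 and 0.70 on a probe that was dim in both parental lines. Between the ways of processing its HN4/DDP value ran from -0.01 to 0.76. AFMID gave 0.80 in HN4/DDP and -0.46 in HN30/DDP, where another of its 3 probes gave -2.78. The fall of KYNU was thus accompanied by lower readings of KMO, the step before it, while HAAO, the step after it, differed little on that probe.

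In the branches that lead away from the route, CCBL1, a kynurenine aminotransferase, was 5.29-fold higher in HN30/DDP (2.40) and at 0.41 in HN4/DDP. IL4I1, an amino acid oxidase that also acts on tryptophan, was lower in HN4/DDP (-2.28) and read 1.81 in HN30/DDP. Of the amino acid transporters that carry tryptophan, SLC7A5 was 4.28-fold lower in HN4/DDP (-2.10) and read -1.29 in HN30/DDP. SLC7A8 was higher in HN30/DDP (3.63) from a dim parental array, at least 2.53-fold, and its other probe was dim on all 4 arrays. Of the 3 genes of the Preiss-Handler route and its transport, SLC22A13 and SLC5A8 were not above background on any of the 4 arrays. NAPRT, which starts that route, had differences of 0.22 in HN4/DDP and 0.00 in HN30/DDP.

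Of 7 genes of riboside salvage and precursor supply, SLC29A1, a nucleoside transporter, was 6.37-fold lower in HN30/DDP (-2.67) and at 0.05 in HN4/DDP. AOX1, an oxidase of nicotinamide metabolites, was 4.63-fold higher in HN4/DDP (2.21). In HN30/DDP it was at least 5.41-fold lower (-4.43), where its spot was not above background, and its second probe moved the same way in both lines (1.53 and -2.14).

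Of 5 NAD hydrolases, ENPP1, a nucleotide pyrophosphatase, was at least 19.0-fold higher in HN4/DDP (4.39), with 3.52 on its other probe. The ENPP1 difference there was smaller with the pseudocount (3.48) and with normexp (2.37), still past the threshold. CD38, the main NAD glycohydrolase of many tissues, was higher in HN4/DDP (2.69) from a dim parental array, at least 1.33-fold. With other processing the HN4/DDP calls of SIRT4 (1.43), AOX1 (1.28), CD38 (0.53) and IL4I1 (-1.93) ended with normexp. Those of SIRT4 (1.95), AOX1 (1.88) and CD38 (1.02) also ended with the pseudocount, AOX1 with the mean over probes (1.87) and CD38 with dim signals at the floor (0.42). SLC7A5 ended with quantile normalization (-1.97) and in the deposited table (-1.98). In HN30/DDP AOX1 ended with normexp (-1.27) and CCBL1 with median scaling (1.98). SLC7A8 ended there with normexp (0.68), the pseudocount (1.62), the floor (1.34) and the mean over probes (1.65). None of 10 genes of ADP-ribosylation, PARPs and tankyrases with the hydrolase MACROD1, was past the threshold, with -1.04 to 0.94 in HN4/DDP and -1.65 to 0.81 in HN30/DDP. The lowest in HN30/DDP, PARP1 (-1.65), did pass it with median scaling, which moved the differences of that line by -0.42.

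The only replicated contrast sets the resistant arrays against the parental arrays with the 2 lines as replicates and 1 residual degree of freedom. Of the 48 other NAD genes that could be tested, limma called 0 at an adjusted p of 0.05 and 4 at an unadjusted p of 0.05, of which SIRT4 and ENPP1 were higher and KMO and SLC7A5 lower. The smallest limma adjusted p was 0.417, for SIRT4, with a log2 difference of 2.95 (SE 0.48) that was higher in both lines. Over all 29521 genes tested limma called 0, and 2537 at an unadjusted p of 0.05. With normexp or quantile normalization limma also called 0.

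IDO1 and KYNU are interferon-inducible, and TDO2 and IDO1 make kynurenine, a ligand of the aryl hydrocarbon receptor (AHR), so companions of both responses were counted. Of 9 interferon-inducible companions, 1 was higher in each line and 0 lower, beside 2.24% of all genes higher and 1.36% lower in HN4/DDP, and 5.48% and 1.8% in HN30/DDP, so 1 gene of the list is no result about it. It had medians of 0.43 in HN4/DDP and 0.49 in HN30/DDP. The gene was CXCL11, a chemokine, in HN4/DDP (3.09, at least 4.55-fold, 0.92 with normexp and 1.94 with the pseudocount) and GBP2, a GTPase, in HN30/DDP (4.30, 19.6-fold).

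Of 5 AHR target genes, 2 were lower in HN4/DDP and 0 higher, with a median of -1.43, beside 1.36% of all genes lower and 2.24% higher. CYP1B1, a cytochrome P450, was 28.4-fold lower there (-4.83) and read -0.12 in HN30/DDP, or 0.17 after quantile normalization. CYP1A1, a further cytochrome P450, was 4.09-fold lower in HN4/DDP (-2.03) and 5.79-fold higher in HN30/DDP (2.53), the 1 of the 5 higher in that line, where 0 were lower and the median was 0.26, beside 5.48% of all genes higher and 1.8% lower. Its HN4/DDP call ended with normexp (-1.75), the pseudocount (-1.95), median scaling, the deposited table and the removed brightness trend (-1.99 in each), which left CYP1B1 as the 1 AHR target lower.

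The genes whose 4-array profile lay nearest to that of QPRT were sought among 13974 genes with an mRNA accession that were above background on both resistant arrays. The measure was the root-mean-square distance of the centred levels over the 4 arrays. The nearest 5 were DYDC2 (0.49), CDH15 (0.56), INPP5D (0.62), CRIP2 (0.62) and RGS9 (0.66). That they were higher in both resistant lines follows from the choice by likeness to QPRT and is no result. INPP5D, a phosphatase of inositol lipids, was the 1 of them above background on all 4 arrays, with -0.65 in HN4 against 3.35 in HN4/DDP, and 1.08 in HN30 against 5.61 in HN30/DDP. DYDC2, CDH15 and RGS9 were dim on both parental arrays and CRIP2 in HN4, so their distances rest in part on dim readings, and none of the 5 was among the nearest with normexp.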

How the data were processed

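The authors deposited 1 scanner file per array with a processed intensity for each spot. Per the file headers, Agilent Feature Extraction (10.7.1.1 in the submitters' processing notes) subtracted background and spatial trends and did not normalize between arrays. A second, deposited table holds log2 values of the same 4 samples, with equal medians of 4.65. Across probes above background on both arrays of a line, differences in it and in the intensities had r = 0.998 in HN4/DDP (30521 probes) and 0.951 in HN30/DDP (30134 probes). The slopes of 0.98 and 0.93 are those of a log2 scale that runs the same way, although single small differences can change sign, and how the table was normalized is unknown.

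Non-control intensities were set on the log2 scale minus the 75th percentile of the array. Outlier spots were dropped, spots of a probe averaged, and the probe with the highest mean level taken for each gene. Higher means a difference above 2 with the resistant array well above background, and lower a difference below -2 with the parental array above background, a threshold taken from the study. Where the dimmer array was below background, the fold is a bound against the higher of its own signal and the lowest signal above background. Summed marker levels add linear signals relative to the 75th percentile.

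The labels give 1 sample per group, and p-values over the 2 lines measure only the spread between these samples. In R 4.3.3, limma 3.58.1 with the line as a block and a trended eBayes step was run for genes above background on at least 1 array and was tested on simulated data. The number of arrays limits the precision. Other steps used Python 3.11.15, numpy 2.4.6, pandas 2.3.3, statsmodels 0.14.6 and matplotlib 3.10.9. The genes and the lists (other NAD genes, interferon companions, AHR targets, cell type markers) were chosen with earlier results of these data known, and 1 listed interferon companion is not reported here. Named were all 10 genes, genes past the threshold on the lists of other NAD genes, interferon companions and AHR targets, and the 5 genes nearest to QPRT. Cell type markers and a few listed genes short of the threshold were named after their values were seen. Names were matched by accession to RefSeq.

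The alternatives were normexp background correction (offset 50), quantile normalization, median scaling, removal of a trend with brightness, the deposited log2 table, a pseudocount of 16, dim signals raised to a floor, genes above background on both arrays, outlier spots kept, the mean over probes, and a threshold of 1.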

Additional observations from a re-analysis of the deposited data

Results flagged for a closer look

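In 9 of the genes on the lists used here, the resistant lines moved in opposite directions by more than 2 scanner SD in each and by more than 1 on the log2 scale in at least 1 of them, which is a difference between lines that was not tested, since each line has 1 array per condition. IDO1 was at 1.03 in HN4/DDP and -0.66 in HN30/DDP. GOT2, a mitochondrial aminotransferase that also acts on kynurenine, was at 1.08 and -0.97, and AOX1 at 2.21 and -4.43. IL4I1 was lower in HN4/DDP at -2.28 and read 1.81 in HN30/DDP, CYP1A1 was at -2.03 and 2.53, and AHRR, the repressor of AHR, at -1.43 and 0.82. Of the cell type markers, KRT6A was at 3.32 and -8.44, the latter on a spot below background in HN30/DDP, and DSC3, a desmosome gene, at -2.95 and 1.12. PECAM1, an endothelial marker, was at -2.88 and 1.1, with HN4/DDP and HN30 not above background.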

How the results depend on the processing

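The QPRT difference of 3.50 in HN4/DDP was 1.73 with normexp and 2.71 with a pseudocount of 16, and that of 6.14 in HN30/DDP was 4.66 with normexp, 5.72 with median scaling and 5.60 with the pseudocount. No alternative turned a sign of QPRT. The 2 members higher in HN4/DDP became 0 with normexp, 1 with the pseudocount, 1 with dim signals at the floor, 1 with the brightness trend taken off, 0 when both arrays had to be above background and 4 at a threshold of 1. The 2 higher in HN30/DDP became 1 with median scaling, and the 1 lower became 0 with normexp. Of the other NAD genes, the 4 higher in HN4/DDP became 1 with normexp, 1 with the pseudocount and 2 when above background on both arrays. The 2 lower in HN4/DDP became 1 with normexp, 1 with quantile normalization, 1 in the deposited table and 5 at a threshold of 1. In HN30/DDP the 3 higher became 8 at a threshold of 1, and the 2 lower became 1 with normexp, 5 with median scaling, 9 at a threshold of 1 and 1 when above background on both arrays. Over all genes, 970 were higher in HN4/DDP, against 258 with normexp, 488 with the pseudocount, 593 with the floor, 387 above background on both arrays and 2500 at a threshold of 1. The 590 lower became 175, 305, 384, 290 and 2322. In HN30/DDP 2371 were higher, against 557, 1085, 1440, 1035 and 5605, and 1545 with median scaling, and the 779 lower became 371 with normexp, 1532 with median scaling and 3756 at a threshold of 1. The lower threshold and the smaller set of genes above background on both arrays change the counts by construction. For the others the cause was not tested.

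Of the 178 differences of the other members, 152 moved by less than the scanner SD and 26 by more, and of 311 for the other listed genes named 243 and 68. These tallies are no measure of stability, since several alternatives leave a value unchanged by construction. Such are kept outliers where no spot was an outlier, the mean over probes for genes with 1 probe, and the floor for bright spots. The limit to genes above background on both arrays also repeats the reported value. The genes nearest to QPRT were the same 5 under quantile normalization, median scaling, the deposited table, kept outliers and the removed trend, 4 of 5 with the mean over probes, 2 with the floor, 1 with the pseudocount and 0 with normexp. Pairing by replicate number was not possible because each group has 1 replicate number, and the limma fit is paired by cell line. The slide was not run as a block, since all arrays lie on 1 slide. With 1 array per condition the limit of every difference is the unknown spread between cultures, and for QPRT in HN4 and TDO2 it is also the signal over background.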
